A study of Homo sapiens with 8 samples.

Results

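The 10 claudin genes CLDN1, CLDN2, CLDN3, CLDN4, CLDN7, CLDN8, CLDN12, CLDN15, CLDN17 and CLDN23 were followed through the H3K27ac peak lists of human colonic epithelial cells with and without CREBBP. A window was set around each gene, made of its GENCODE gene body on hg38 and 20 kb on either side, and every peak that overlapped a window was taken. The 6 lists held 190 peaks in these windows. Peaks that overlapped or touched across libraries were joined into 38 intervals, out of 143733 intervals in the genome. The family was chosen by its measured values in these lists, namely the folds of an interval near CLDN8, high in WT and with no peak in CREBBP-KO, so the values of that interval are given as a description with no test.

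The cells were HCEC-1CT, an established line of human colonic epithelial cells kept from senescence by cyclin-dependent kinase 4 and telomerase. The WT group held 3 libraries of parental cells, and the CREBBP-KO group, whose genotype is labelled CBP KO, held 3 libraries of cells in which Cas9 had been directed to CREBBP. Cells of both genotypes came from a line carrying doxycycline-inducible Cas9, were grown in the same medium and were precipitated with the same antibody (H3K27ac Abcam Ab4729). The study's methods call the knockout cells of this assay monoclonal and describe elsewhere the pooling of clones and of parental subclones, so the 3 libraries of a genotype may share a clonal origin, and p-values then measure only the spread between these libraries. No read over the edited site was at hand, so the lists cannot show the edit itself, and the input libraries, 1 per genotype, were not analysed here.

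Claudins are membrane proteins that cross the membrane several times and join neighbouring epithelial cells at the tight junction. Some of them seal the space between cells, others form channels through it for ions and water, and the set present decides how leaky an epithelium is. In the gut, CLDN1, CLDN3, CLDN4, CLDN7 and CLDN8 are usually counted among the sealing claudins, while CLDN2 and CLDN15 form channels for cations. H3K27ac, acetylation of histone H3 at lysine 27, marks active promoters and enhancers, and CREBBP is one of the acetyltransferases that write it.

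The WT lists held 86163 to 93567 peaks and the CREBBP-KO lists 99008 to 111697, with median folds of 4.32 to 4.46 and 4.02 to 4.10. A fold here is the height of a peak over its local background, and the percentile of a peak is the share of its own list at or below that fold. The CREBBP-KO lists were longer and had lower median folds, so a fold at the WT median stood above the middle of the CREBBP-KO lists. Of the 10 colonic epithelial marker genes examined, CDH1, KRT19, KRT20, CDX1, CDX2, VIL1 and CDH17 had no promoter peak in any library. EPCAM and KRT8 had one in all 6 libraries, at folds of up to 3.85 and 6.82, and KRT18 in 5. The mesenchymal markers VIM, CDH2, ZEB1 and FN1 had a promoter peak in all 6 libraries, with a summed fold of 59.6 to 67.2 in WT, against 89.2 to 103 in CREBBP-KO. The promoter intervals of CDH2, ZEB1 and FN1 ranked higher in CREBBP-KO (limma adjusted p = 0.0162, 0.000823 and 0.00126). For CDH2 the limma adjusted p was 0.0929 without CREBBP-KO 2. VIM did not pass the test (shift 0.19, limma adjusted p = 0.342). Over the promoter intervals of all protein-coding genes, 26.5% ranked higher. The FN1 interval, from 215355667 to 215441129, spanned the whole gene. The summed fold of the epithelial markers was 9.92 to 12.5 in WT, against 10.3 to 12.8 in CREBBP-KO, but in WT it counted 1 peak shared by the neighbours KRT8 and KRT18 under both genes. EPCAM had folds of 2.09, 2.60 and 2.72 in WT and 3.85, 3.47 and 2.93 in CREBBP-KO, and KRT8 4.56, 4.97 and 3.60 against 4.64, 6.82 and 6.47. The percentiles of both genes were higher in every CREBBP-KO library than in any WT library (exact permutation p = 0.1 for each, the smallest possible). Among all tested intervals, which did not include these promoters, 34.2% lay higher in this way. KRT18 did not show this pattern. Its folds were 4.56, 4.97 and 3.60 in WT, 4.27 in CREBBP-KO 1 and 3.37 in CREBBP-KO 3, with no peak in CREBBP-KO 2. The immune markers PTPRC and CD3E and the endothelial marker CDH5 were without a promoter peak, and PECAM1 had peaks in the CREBBP-KO libraries alone, at folds of 2.80 to 3.60. The part of these markers in the claudin values was not tested.

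The sequences below cover some of the sites described further on. The canonical start of CLDN12 and the intervals that ranked higher in CREBBP-KO are not among them. They are 300 bases of hg38 around the summit of the highest peak at the interval that had peaks in WT only on either side of CLDN8, and at the intervals near CLDN4, CLDN1 and CLDN12 that ranked lower in CREBBP-KO and lay outside exons, all read on the plus strand. The last 2 are the 250 bases before the RefSeq start (GRCh38.p14) of CLDN3 and CLDN17, which had no promoter peak, read on the minus strand. Capitals mark matches, on either strand, to the AP-1 motif TGANTCA, the cyclic AMP response element TGACGTCA, the motif of GATA factors, which reads AGATAA, the TATA box, which reads TATAAA, or the GC box, which reads GGGCGG.
CLDN8 downstream site, chr21:30206943-30207242: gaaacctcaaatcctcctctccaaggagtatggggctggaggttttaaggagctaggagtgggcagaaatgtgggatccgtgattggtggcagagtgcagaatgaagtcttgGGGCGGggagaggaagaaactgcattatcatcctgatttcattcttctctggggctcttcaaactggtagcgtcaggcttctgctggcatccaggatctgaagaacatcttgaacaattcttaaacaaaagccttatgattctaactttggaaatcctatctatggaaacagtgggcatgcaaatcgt
CLDN8 upstream site, chr21:30227446-30227745: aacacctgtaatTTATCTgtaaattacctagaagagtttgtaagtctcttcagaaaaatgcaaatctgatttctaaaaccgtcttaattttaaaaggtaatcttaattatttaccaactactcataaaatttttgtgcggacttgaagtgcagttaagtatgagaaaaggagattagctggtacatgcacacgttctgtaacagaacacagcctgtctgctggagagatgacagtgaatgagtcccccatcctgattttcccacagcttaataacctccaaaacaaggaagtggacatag
CLDN4 upstream site, chr7:73822930-73823229: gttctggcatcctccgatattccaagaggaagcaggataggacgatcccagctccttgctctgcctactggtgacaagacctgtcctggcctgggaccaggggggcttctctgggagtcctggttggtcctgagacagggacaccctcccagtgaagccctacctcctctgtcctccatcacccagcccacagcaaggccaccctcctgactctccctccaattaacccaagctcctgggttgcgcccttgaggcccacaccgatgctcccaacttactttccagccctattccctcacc
CLDN1 upstream site, chr3:190326246-190326545: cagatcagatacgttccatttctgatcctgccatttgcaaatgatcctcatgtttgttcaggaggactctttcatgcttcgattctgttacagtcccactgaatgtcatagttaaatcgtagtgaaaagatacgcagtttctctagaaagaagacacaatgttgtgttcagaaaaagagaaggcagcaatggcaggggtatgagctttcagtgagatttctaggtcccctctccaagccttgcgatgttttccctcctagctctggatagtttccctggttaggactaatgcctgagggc
CLDN12 intronic site, chr7:90474524-90474823: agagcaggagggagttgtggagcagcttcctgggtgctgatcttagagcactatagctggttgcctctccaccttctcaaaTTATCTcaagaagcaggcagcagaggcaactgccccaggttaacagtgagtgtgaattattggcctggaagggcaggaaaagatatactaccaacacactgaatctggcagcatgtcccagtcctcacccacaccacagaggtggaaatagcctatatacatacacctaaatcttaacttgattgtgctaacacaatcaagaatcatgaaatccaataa
CLDN3 promoter, chr7:73770271-73770520: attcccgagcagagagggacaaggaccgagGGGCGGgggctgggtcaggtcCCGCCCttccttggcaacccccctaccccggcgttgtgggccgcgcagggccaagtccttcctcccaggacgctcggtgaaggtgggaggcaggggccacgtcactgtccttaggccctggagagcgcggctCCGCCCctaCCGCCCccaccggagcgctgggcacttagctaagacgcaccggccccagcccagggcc
CLDN17 promoter, chr21:30166806-30167055: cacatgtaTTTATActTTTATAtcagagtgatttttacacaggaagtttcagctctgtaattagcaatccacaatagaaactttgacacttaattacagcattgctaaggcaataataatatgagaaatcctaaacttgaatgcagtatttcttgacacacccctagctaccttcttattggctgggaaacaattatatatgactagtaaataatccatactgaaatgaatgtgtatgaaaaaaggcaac

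The downstream CLDN8 sequence held 1 GC box, and the upstream CLDN8 and intronic CLDN12 sequences held 1 GATA match each. The CLDN4 and CLDN1 upstream sequences held none of the 5 motifs. Over the 35524 windows of the same length around the summits of filtered intervals on chromosomes 1 to 22, X and Y, a GC box was found in 22.3%, a GATA match in 14.1%, a TATA box in 16% and an AP-1 match in 8.84%. The CLDN3 promoter held 4 GC boxes and had a GC content of 71.6%, and the CLDN17 promoter held 2 TATA boxes and had a GC content of 32.0%. Among 35116 RefSeq promoters cut to the same 250 bases, 42.6% held a GC box and 10.7% a TATA box. These matches are descriptions of the letters only.

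At the promoters of the 10 claudins, H3K27ac was found in every library for 3 genes, in some libraries for 2 and in none for 5. A promoter peak was any peak overlapping 1 kb on either side of a protein-coding start of the gene. CLDN7, CLDN12 and CLDN23 had one in all 6 libraries, while CLDN3, CLDN4, CLDN8, CLDN15 and CLDN17 had none. Across 19663 protein-coding genes, 61.8% had a promoter peak in all 6 libraries and 32.2% in none. The sealing claudins CLDN3, CLDN4 and CLDN8 and the cation-channel claudin CLDN15 were thus among the genes with no acetylated promoter by these lists in either genotype.

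**Figure D1:**
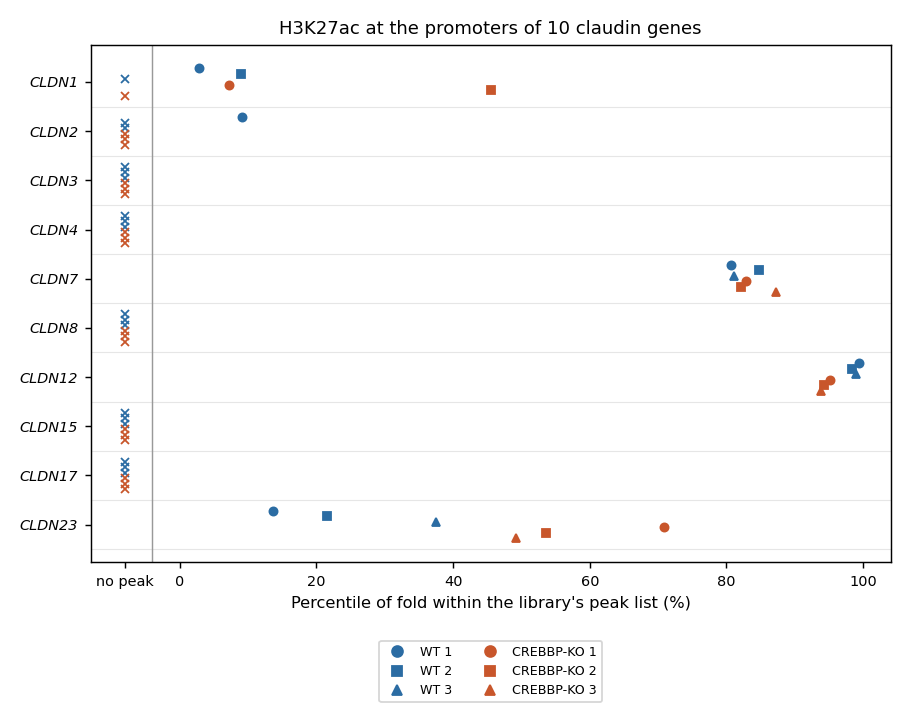
Percentile of the highest promoter peak of each of the 10 claudin genes within the peak list of each library, with 1 symbol per library, blue for WT and orange for CREBBP-KO, and crosses at the left for libraries with no promoter peak. CLDN12 lay above percentile 93 in all 6 libraries with WT above CREBBP-KO, CLDN7 lay near 80 to 90 in both genotypes, CLDN23 was higher in the 3 CREBBP-KO libraries, and 5 genes had no promoter peak.

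The promoter of CLDN12, a claudin that differs from classical members in lacking the usual anchor for scaffold proteins at its end, was the strongest of the family. Its highest promoter peak had folds of 26.0, 20.5 and 22.8 in WT and 16.5, 16.5 and 16.9 in CREBBP-KO. In CREBBP-KO 1 and CREBBP-KO 2 the highest peak was the one at the upstream start, while in the other libraries it was that at the canonical start, whose folds are given with its interval further on. All 3 CREBBP-KO values lay below the lowest WT value. The percentile was 98.9 ± 0.477 in WT against 94.4 ± 0.622 in CREBBP-KO (SD, n = 3 each), and the exact permutation test gave p = 0.1, the smallest that 3 libraries against 3 allow.

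CLDN7, a sealing claudin of the basolateral membrane and the tight junction, had a promoter peak in the upper part of all 6 lists. Its highest promoter peak had folds of 9.01, 10.1 and 9.33 in WT and 8.85, 9.30 and 12 in CREBBP-KO, and the groups overlapped. The value of CREBBP-KO 2 came from the interval at the other end of the gene, and that of every other library from the interval upstream of CLDN7. The percentile was 82.2 ± 2.22 in WT against 84.1 ± 2.74 in CREBBP-KO (SD, n = 3 each) (two-sided exact permutation test, p = 0.5). The sign of this small difference turned when the lists were trimmed to one length (-0.816 percentile points) or ranked by -log10 p (-1.67).

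CLDN23, a claudin of the surface epithelium of the colon, had a low promoter peak whose fold was larger in each CREBBP-KO library than in any WT library. Its folds were 2.86, 3.07 and 3.77 in WT and 5.95, 4.31 and 4.03 in CREBBP-KO. The percentile was 24.2 ± 12.2 in WT against 57.9 ± 11.5 in CREBBP-KO (SD, n = 3 each), again with the smallest possible p of the exact permutation test, p = 0.1. By -log10 p in place of fold the difference was 18.4 percentile points and the exact permutation p was 0.2. The interval did not reach a fold of 5 in all 3 libraries of a genotype and was outside the fit across intervals. Without that filter its rank shift was 0.90 ± 0.36 (SE) with a limma adjusted p of 0.0674.

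CLDN1, a sealing claudin of many epithelia, had a weak promoter peak in 4 libraries, with folds of 2.41 in WT 1, 2.67 in WT 2, 2.64 in CREBBP-KO 1 and 3.85 in CREBBP-KO 2. Neither WT 3 nor CREBBP-KO 3 had one, so presence did not separate the genotypes. CLDN2, the cation channel of leaky epithelia, had a promoter peak of fold 2.69 in WT 1 alone, at percentile 9.19. Apart from the peak in CREBBP-KO 2, at percentile 45.5, the promoter peaks of both genes stood below percentile 10 of their lists.

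CLDN8 (ENSG00000156284.6), a sealing claudin of the distal colon and kidney tubule, lies on chromosome 21 between 30214006 and 30216097 (hg38, minus strand). Its window held 2 intervals, each called in WT 1, WT 2 and WT 3 and in none of the CREBBP-KO libraries. The first, from 30205779 to 30209955, lay downstream of the gene and overlapped an exon of the non-coding gene LINC00307. Its folds were 11.7 in WT 1, 11.5 in WT 2 and 12.9 in WT 3, at percentiles 88.3, 88.4 and 90.2, and the highest -log10 p in each library ranged from 50.3 to 58.9. All 3 WT libraries thus placed this site in the upper part of their lists, and no CREBBP-KO library listed any peak there. Its summits lay 8886 to 9117 bp downstream of the CLDN8 start, and the peaks covered 3090 to 4127 bp. In WT 3 the site was split into a main peak and a lesser one of fold 3.40.

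The second interval, from 30227079 to 30228874, lay upstream of CLDN8 outside any annotated gene, with summits 11498 to 12255 bp before its start. Its folds were 5.86, 5.94 and 6.17 in WT 1 to WT 3, at percentiles 65.6 to 66.5. The 3 WT values differed by less than 1 percentile point, and the CREBBP-KO lists held nothing at this place either. Over the genome, 1548 of 143733 intervals (1.08%) had peaks in all WT and no CREBBP-KO libraries, and 58 of the 35542 filtered intervals (0.163%) did so with a fold of at least 5 in all 3 WT libraries. By mean WT percentile the downstream site stood at rank 3 of those 58 and the upstream site at rank 48. These places are what led to the choice of the family and are not a test of it.

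**Figure D2:**
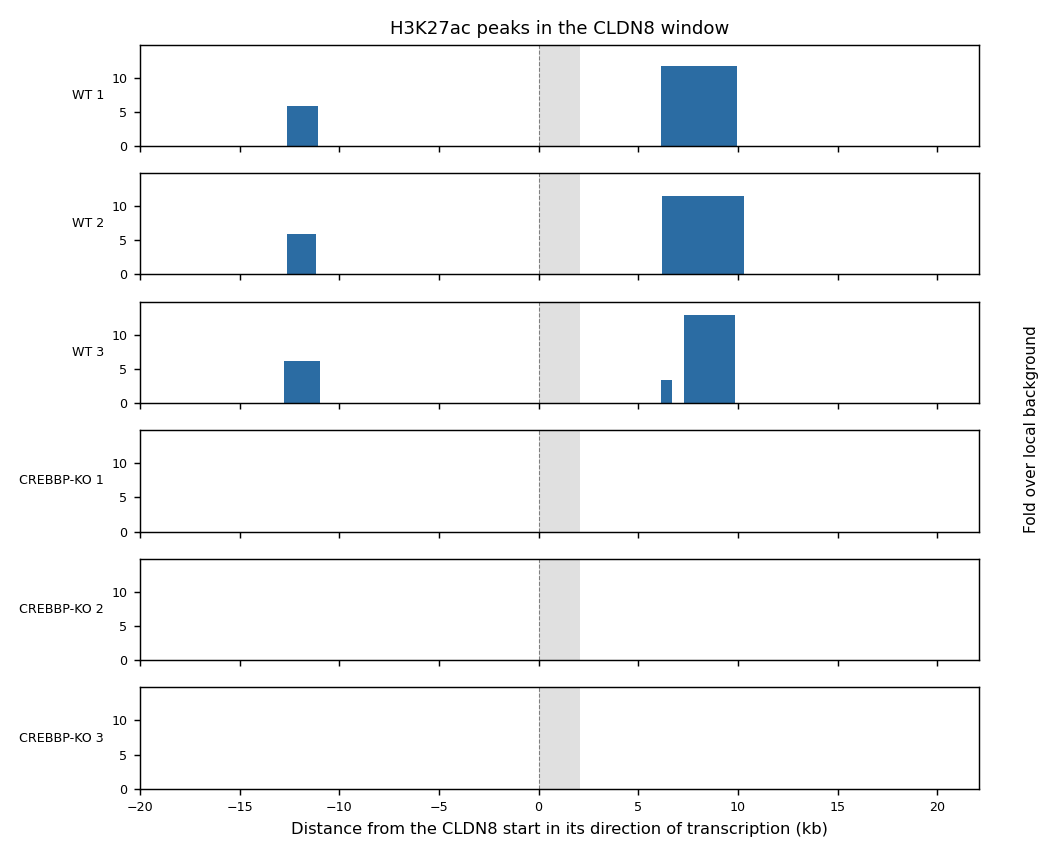
Peaks in the CLDN8 window by library, with bar width the extent of the peak, bar height its fold over local background, the horizontal axis in kb from the CLDN8 start in the direction of transcription, the dashed line at the start and grey over the gene body. The 3 WT panels each show the upstream site at folds near 6 and the downstream site at 11.5 to 12.9, and the 3 CREBBP-KO panels are empty.

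The neighbourhood of CLDN8 was poor in H3K27ac in both genotypes. In the CREBBP-KO lists the nearest peak at lower coordinates was 301 to 487 kb away from the downstream site, and the nearest one at higher coordinates was 1430 kb from the upstream site. The stretch of 1754 kb from 29904998 to 31658942 that held no peak in any CREBBP-KO library was overlapped by 5, 6 and 5 peaks in WT 1, WT 2 and WT 3, of which 3, 5 and 4 lay wholly within it. The peaks wholly within it were those of both CLDN8 sites, weak ones of fold 2.88 to 3.24 about 22 kb upstream of CLDN8, and 1 of fold 4.60 in WT 2 near CLDN17. At its lower edge, the interval from 29904090 to 29905595, whose WT peaks ran into the stretch, had folds of 14.4, 10.8 and 9.44 in WT and 3.54 in CREBBP-KO 2 alone. Of 37 protein-coding genes touching the stretch, 33 encode keratin-associated proteins and 37 had no promoter peak in any library. The share of a library's peaks that lay on chromosome 21 was 1.03 ± 0.0100% for WT against 1.02 ± 0.0115% for CREBBP-KO (SD, n = 3 each). This share is a description that includes the CLDN8 peaks. The WT libraries had 881 to 972 peaks on the chromosome, so the share cannot show the loss of the few in the stretch.

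CLDN17, an anion-channel claudin and the neighbour of CLDN8, had 1 interval in its window, from 30179455 to 30179885, with a peak of fold 4.60 at percentile 53.7 in WT 2 only. CLDN3, a sealing claudin, was the only member with no interval in its window in any library. The nearest intervals lay 29.3 kb and 51.1 kb from the gene, the latter being the upstream site of its neighbour CLDN4.

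For the other claudins, the rank of each interval's fold was compared between genotypes. Intervals with a fold of at least 5 in all 3 libraries of a genotype and a peak in all 6 were fitted over the genome with limma, on normal scores of the ranks within each library. The shift is the CREBBP-KO minus WT difference in those scores, where 1 unit is 1 standard deviation of the scores within a library. In the windows 22 of the 38 intervals (against 36.3% of all intervals) had a peak in all 6 libraries and 18 could be tested. Of these 18, 5 ranked lower in CREBBP-KO, 2 ranked higher and 11 did not pass an adjusted p of 0.05, where 18.7% of all 34864 tested intervals ranked lower and 18.6% higher. The median shift of the 18 was -0.34, beside 0.02 over all tested intervals.

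By position, the 5 lower intervals were 2 of the 4 tested at a claudin start and 3 of the 7 at no start. The 2 higher ones were among the 7 tested at the start of a neighbouring gene. Over the promoter intervals of all protein-coding genes, 26.5% ranked higher and 8.4% lower. No such share was computed for intervals at no start. The percentiles of 3 tested intervals lay lower in every CREBBP-KO library than in every WT library, and those of 4 lay higher, where 15.2% and 34.2% of all tested intervals did so.

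**Figure D3:**
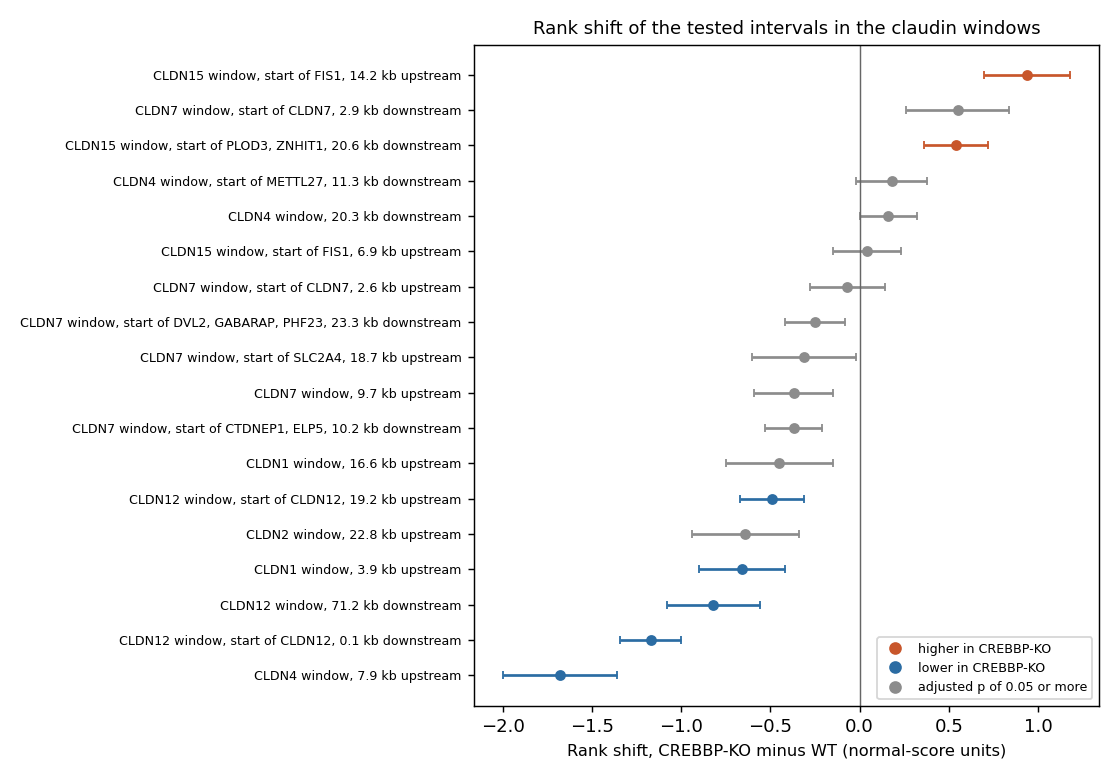
Rank shift of the 18 tested intervals, CREBBP-KO minus WT in normal-score units, as points with bars of 1 SE, labelled by window, by the gene starts within 1 kb and by the distance of the highest summit from the canonical start of the claudin. The 5 lower intervals (blue) belong to the CLDN4, CLDN12 and CLDN1 windows and run from -1.68 to -0.49, the 2 higher ones (orange) belong to the CLDN15 window, and the 11 in grey have an adjusted p of 0.05 or more.

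CLDN4 (ENSG00000189143.10), a sealing claudin on chromosome 7, had the largest shift of the windows at a site within its own gene body. The interval from 73821372 to 73824029 lay in an intron of the longer CLDN4 transcripts, 7917 bp upstream of the canonical start. Its folds were 9.10, 8.26 and 6.67 in WT and 4.60, 3.18 and 5.10 in CREBBP-KO, a mean of 8.01 ± 1.24 (SD, n = 3) against 4.29 ± 0.994 (SD, n = 3). All 3 CREBBP-KO values lay below the lowest WT value. The percentile went from 76.3 ± 6.08 to 49.2 ± 19.4 (SD, n = 3 each), and the shift was -1.68 ± 0.32 (SE) with a limma adjusted p of 0.000404. This interval passed the threshold in every alternative that tested it. The length covered by its peaks was 1723 to 1984 bp in WT, against 1968 to 2308 bp in CREBBP-KO, where CREBBP-KO 1 had 2 peaks of 654 and 1359 bp in place of 1.

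Downstream of CLDN4 the folds were not lower. The interval from 73848278 to 73853055, outside genes and 20308 bp from the canonical start, had folds of 16.3, 14.3 and 16.5 in WT and 19.5, 18.6 and 19.8 in CREBBP-KO. Its shift of 0.16 ± 0.16 (SE) had a limma adjusted p of 0.441, although the CREBBP-KO percentiles all lay above those of WT. The start of METTL27, a neighbouring gene, had folds of 11.7, 12.4 and 9.16 in WT and 14.9, 15.0 and 10.6 in CREBBP-KO (limma adjusted p = 0.517). Within this one window, an upstream intronic site thus ranked lower while 2 downstream sites did not pass the test. An interval from 73844803 to 73845856 had low peaks in 5 libraries, at folds of 2.59 to 3.67.

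CLDN12 (ENSG00000157224.16), on chromosome 7 from 90383721 to 90513402, had the longest window of the 10 members, 170 kb beside 41.2 to 73.1 kb for the others. It also had the most intervals, 10, of which 3 could be tested and 3 ranked lower in CREBBP-KO. The interval at its canonical start, from 90401398 to 90408084, had folds of 26.0, 20.5 and 22.8 in WT and 13.7, 13.9 and 16.9 in CREBBP-KO, a mean of 23.1 ± 2.80 (SD, n = 3) against 14.8 ± 1.78 (SD, n = 3). The groups did not overlap. The shift was -1.17 ± 0.17 (SE), with a limma adjusted p of 2.81e-05, and it passed the threshold in every alternative. Its peaks also covered less sequence in CREBBP-KO, 3432 to 4797 bp against 5500 to 5817 bp in WT, again without overlap. Over the whole lists the median peak width was 1093, 1140 and 1161 bp in WT and 800, 936 and 1114 bp in CREBBP-KO. The share of all intervals that covered less sequence in this way was not computed. Over the promoter intervals of 11708 protein-coding genes, 8.4% ranked lower in CREBBP-KO and 26.5% higher, with a median shift of 0.20, and of the 2 claudin promoters with a tested interval CLDN12 was lower and CLDN7 was not called.

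An upstream start of CLDN12 lay in the interval from 90381848 to 90386177, which also covers an exon of GTPBP10. Its folds were 19.2, 18.7 and 14.9 in WT and 16.5, 16.5 and 13.4 in CREBBP-KO, which overlap. The shift was -0.49 ± 0.18 (SE, limma adjusted p = 0.0362), and the call was lost without WT 1, WT 2, CREBBP-KO 2 or CREBBP-KO 3 (limma adjusted p = 0.118, 0.137, 0.0546 and 0.196). It was also lost by -log10 p (shift -0.22, limma adjusted p = 0.305) and in limma without a trend (adjusted p = 0.104).

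**Figure D4:**
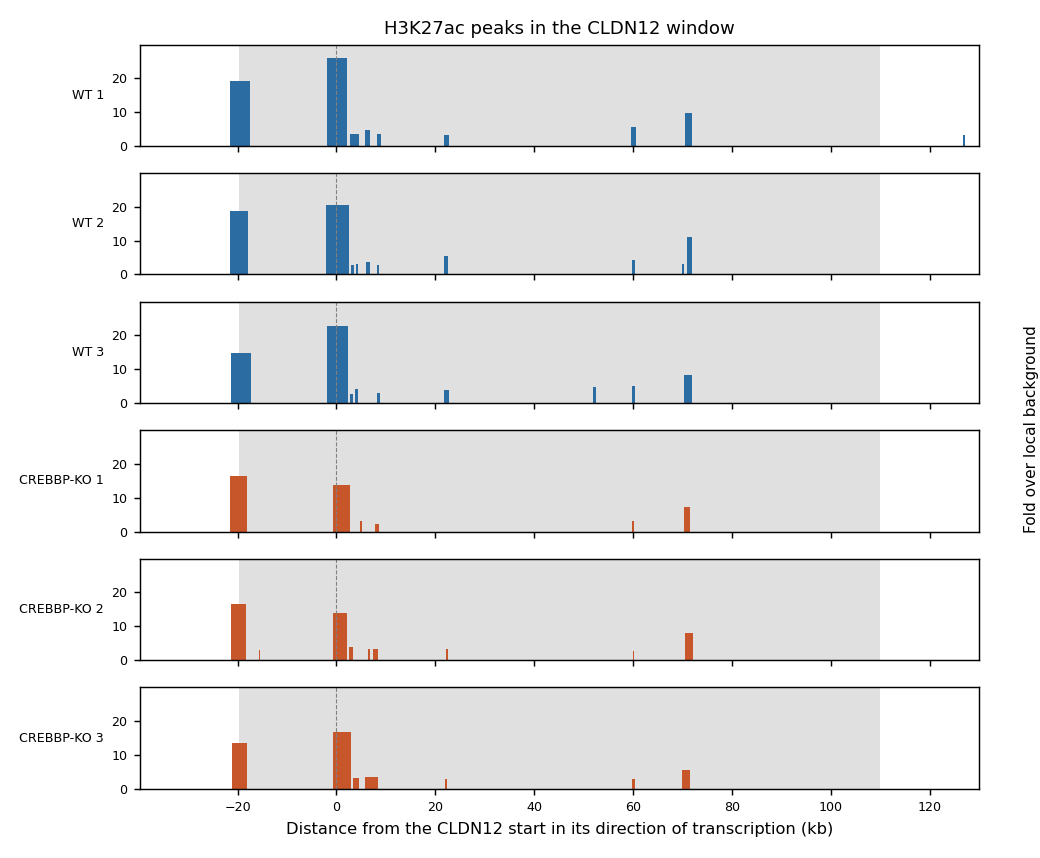
Peaks in the CLDN12 window by library, drawn as bars of the peak's extent and fold, with the horizontal axis in kb from the canonical CLDN12 start, grey over the gene body and 1 panel per library. The peak at 0 kb reaches a fold of 20.5 to 26.0 in the WT panels and 13.7 to 16.9 in the CREBBP-KO panels, and the sites about 60 and 71 kb into the gene are also lower in the CREBBP-KO panels.

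Farther into CLDN12, the interval from 90473397 to 90475560 lay in introns of CLDN12, CDK14 and PTTG1IP2. Its highest summit was 71212 bp from the canonical CLDN12 start and 5034 bp from the nearest start, that of PTTG1IP2. Its folds were 9.77, 11 and 8.23 in WT and 7.37, 8.02 and 5.43 in CREBBP-KO, with all CREBBP-KO folds below the lowest WT fold although the percentiles overlapped. The shift was -0.82 ± 0.26 (SE, limma adjusted p = 0.0178), and the call was lost without WT 2 or CREBBP-KO 3 (limma adjusted p = 0.0894 and 0.121). A weaker interval from 90463008 to 90463959, whose nearest start was one of CDK14 at 2771 bp, had folds of 5.47, 4.14 and 5.13 in WT and 2.99, 2.83 and 2.94 in CREBBP-KO. It fell below the fold filter, and without that filter its shift was -1.42 ± 0.36 (SE, limma adjusted p = 0.00589). The interval from 90409172 to 90412398 had folds of 3.02 to 4.70 in WT, against 2.39 to 3.37 in CREBBP-KO, and the one from 90425139 to 90426248 had folds of 3.33, 5.46 and 3.75 in WT and 3.40 and 3.02 in CREBBP-KO 2 and CREBBP-KO 3, with no peak in CREBBP-KO 1. A peak of fold 4.86 from 90455347 to 90455936 was called in WT 3 alone.

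CLDN1 (ENSG00000163347.6), on chromosome 3 between 190305707 and 190322446 (minus strand), had its main acetylated site upstream of its weak promoter, in an intron of CLDN16. That interval, from 190325623 to 190327492, lay 3949 bp upstream of the CLDN1 start and had folds of 8.07, 12.5 and 10.7 in WT and 6.40, 8.80 and 8.21 in CREBBP-KO. The groups overlapped, since WT 1 was below 2 of the CREBBP-KO libraries. The shift was -0.66 ± 0.24 (SE, limma adjusted p = 0.0355), and the call did not hold without WT 2, WT 3, CREBBP-KO 1 or CREBBP-KO 3 (limma adjusted p = 0.192, 0.0881, 0.156 and 0.0585). Ranking by -log10 p (shift -0.25, limma adjusted p = 0.413) or dropping limma's trend (adjusted p = 0.0642) also ended the call. A second site 16608 bp upstream had folds of 5.89, 5.09 and 6.96 in WT and 4.89, 5.15 and 5.85 in CREBBP-KO and did not pass the test (shift -0.45 ± 0.30, SE, limma adjusted p = 0.248).

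CLDN2 (ENSG00000165376.12), on the X chromosome, had its highest site 2558 bp from its first start and 22796 bp upstream of its canonical start, in an intron of MORC4. The interval from 106894529 to 106898287 had folds of 6.35, 7.13 and 7.98 in WT and 5.16, 7.55 and 5.04 in CREBBP-KO. CREBBP-KO 2 stood above 2 of the WT libraries, and the shift of -0.64 ± 0.30 (SE) did not pass the test (limma adjusted p = 0.0988). Without CREBBP-KO 2 it was -1.01 with a limma adjusted p of 0.0180. A downstream site from 106931807 to 106933744 had a mean fold of 4.66 in both genotypes, with an SD of 0.738 in WT and 1.31 in CREBBP-KO (n = 3 each).

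CLDN15 (ENSG00000106404.14), the other cation-channel claudin, had no peak at its own starts, and the 4 intervals of its window lay at the starts of PLOD3, a collagen-modifying enzyme, ZNHIT1 and FIS1, a mitochondrial fission factor. The interval from 101251044 to 101252904, 122 bp from a start of FIS1, had folds of 7.32, 5.34 and 6.64 in WT and 10.6, 11.5 and 10.1 in CREBBP-KO, with no overlap. Its shift was 0.94 ± 0.24 (SE, limma adjusted p = 0.00471). At PLOD3 and ZNHIT1, the interval from 101215754 to 101219392 had folds of 8.48, 9.36 and 9.67 in WT and 13.2, 14.0 and 13.2 in CREBBP-KO, also with no overlap. Its shift of 0.54 ± 0.18 (SE, limma adjusted p = 0.0231) lost its call without WT 1, CREBBP-KO 1 or CREBBP-KO 2 (limma adjusted p = 0.0753, 0.0644 and 0.0770), and by -log10 p (shift 0.22, limma adjusted p = 0.257). A low peak at another start of PLOD3, from 101214367 to 101215625, was called in WT 2 and WT 3 only, at folds of 2.96 and 3.80. The other FIS1 interval, from 101243094 to 101245535, had folds of 10.6, 10.8 and 11.9 in WT and 14.4, 10.1 and 13.2 in CREBBP-KO and a shift of 0.04 ± 0.19 (SE, limma adjusted p = 0.885). The rises near CLDN15 were thus at neighbouring genes and not at CLDN15 itself.

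CLDN7 (ENSG00000181885.18), on chromosome 17, lies among active genes, and none of the 6 tested intervals of its window passed the threshold. The interval upstream of CLDN7 from 7262217 to 7267619 had folds of 9.01, 10.1 and 9.33 in WT and 8.85, 8.82 and 12 in CREBBP-KO (shift -0.07 ± 0.21, SE, limma adjusted p = 0.804). At the other end of the gene, the interval from 7257914 to 7260492, which also covers exons of ELP5, had folds of 6.44, 6.21 and 4.79 in WT and 7.50, 9.30 and 6.37 in CREBBP-KO (shift 0.55 ± 0.29, SE, limma adjusted p = 0.132). The 2 highest intervals outside the CLDN7 promoter lay at starts of neighbouring genes. That at DVL2, GABARAP and PHF23 had folds of 16.3 to 21.4 in WT, against 18.3 to 20.6 in CREBBP-KO, but it ran past the window edge. Of its peaks that overlapped the window, the highest had folds of 19.3, 13.6 and 12.6 in WT and 17.1, 20.6 and 18.9 in CREBBP-KO. The interval at CTDNEP1 and ELP5 had folds of 17.5 to 18.4 in WT, against 16.2 to 17.8 in CREBBP-KO. Its percentiles were lower in all CREBBP-KO libraries but its limma adjusted p was 0.0679. Ranked by -log10 p it passed as lower (shift -0.36, limma adjusted p = 0.0463). The remaining sites, 9662 bp upstream and at SLC2A4, had limma adjusted p of 0.195 and 0.414.

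Of the remaining intervals, 10 had a peak in 1 library only, 4 of them in WT and 6 in CREBBP-KO, with folds of 2.36 to 4.86. The window edge of 20 kb left out some strong neighbours. The interval just outside the CLDN23 window, 20.1 kb from the gene, had folds of 13.6, 11.5 and 12.7 in WT and 7.61, 7.09 and 6.74 in CREBBP-KO, and the one 21.2 kb from CLDN1 had folds of 28.2 to 33.1 in WT, against 24.9 to 32.1 in CREBBP-KO. Just inside the edge, the peak 19.6 kb from CLDN2 had a fold of 3.07 in CREBBP-KO 2 only, and the one 16.8 kb from CLDN12 had a fold of 3.17 in WT 1 only.

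In number, the windows held 34, 34 and 31 peaks in WT and 32, 31 and 28 in CREBBP-KO. These counts include the peaks at both CLDN8 sites, which led to the choice of the family, so they are given as a description. Without the CLDN8 sites the windows held 32, 32 and 28 peaks in WT and 32, 31 and 28 in CREBBP-KO, a mean of 30.7 ± 2.31 (SD, n = 3) against 30.3 ± 2.08 (SD, n = 3) with an exact permutation p of 1.00. The peaks then covered 58.2 ± 4.96 kb in WT and 53.2 ± 4.86 kb in CREBBP-KO (SD, n = 3 each, exact permutation p = 0.5), and the groups overlapped. As a share of their list, again without the CLDN8 sites, the windows held 0.0337 ± 0.00106% in WT and 0.0288 ± 0.000636% in CREBBP-KO (SD, n = 3 each), which did not overlap (exact permutation p = 0.1, the smallest possible). The CREBBP-KO lists were the longer ones, and the number of peaks in the windows was nearly the same.

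Claudins work at the tight junction with scaffold, adhesion and polarity proteins. Of 19 such partner genes, 12 had a promoter peak in all 6 libraries, 4 in some and 3 in none, beside 3, 2 and 5 of the 10 claudins. Across all protein-coding genes, 61.8% had one in all 6 libraries and 32.2% in none. The partners with none were MARVELD3, a tetraspan protein of the junction, CGNL1, which links the junction to the cytoskeleton, and CXADR, an adhesion receptor. The scaffold TJP1 (ZO-1) had folds of 18.4, 17.6 and 18.9 in WT and 18.1, 22.0 and 22.0 in CREBBP-KO, and occludin (OCLN) 20.5, 19.1 and 16.6 against 18.2, 17.1 and 20.7, both with overlapping groups. Neither passed the test (limma adjusted p = 0.868 and 0.206).

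Of the 10 partners with a tested promoter interval, 1 ranked higher in CREBBP-KO, 1 lower and 8 did not pass, with a median shift of -0.06, beside 26.5% higher, 8.4% lower and a median shift of 0.20 over the promoter intervals of all protein-coding genes. PATJ, a scaffold of the Crumbs polarity complex, rose from folds of 6.42, 6.64 and 7.40 in WT to 12.4, 11 and 13.2 in CREBBP-KO, with no overlap (shift 0.98 ± 0.22, SE, limma adjusted p = 0.00136). PRKCI, the polarity kinase aPKC iota, had folds of 31.7, 21.3 and 32.5 in WT and 24.1, 25.8 and 26.7 in CREBBP-KO, which overlap through WT 2 (shift -0.62 ± 0.22, SE, limma adjusted p = 0.0290). Among fits that left out 1 library, the PRKCI call held only without WT 2 (limma adjusted p from 0.0625 to 0.143 in the other 5) and was also lost by -log10 p and without a trend. PARD6B and CGN, below the fold filter, had higher percentiles in all 3 CREBBP-KO libraries, with folds of 2.92 to 3.93 in WT, against 4.99 to 6.18 in CREBBP-KO for PARD6B and of 3.22 to 4.05 and 4.44 to 6.47 for CGN. The percentiles of JAM3 were also higher in all 3, but its folds overlapped and it did not pass the test (shift 0.27 ± 0.23, SE, limma adjusted p = 0.376). Among all tested intervals, 34.2% had percentiles higher in every CREBBP-KO library.

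**Figure D5:**
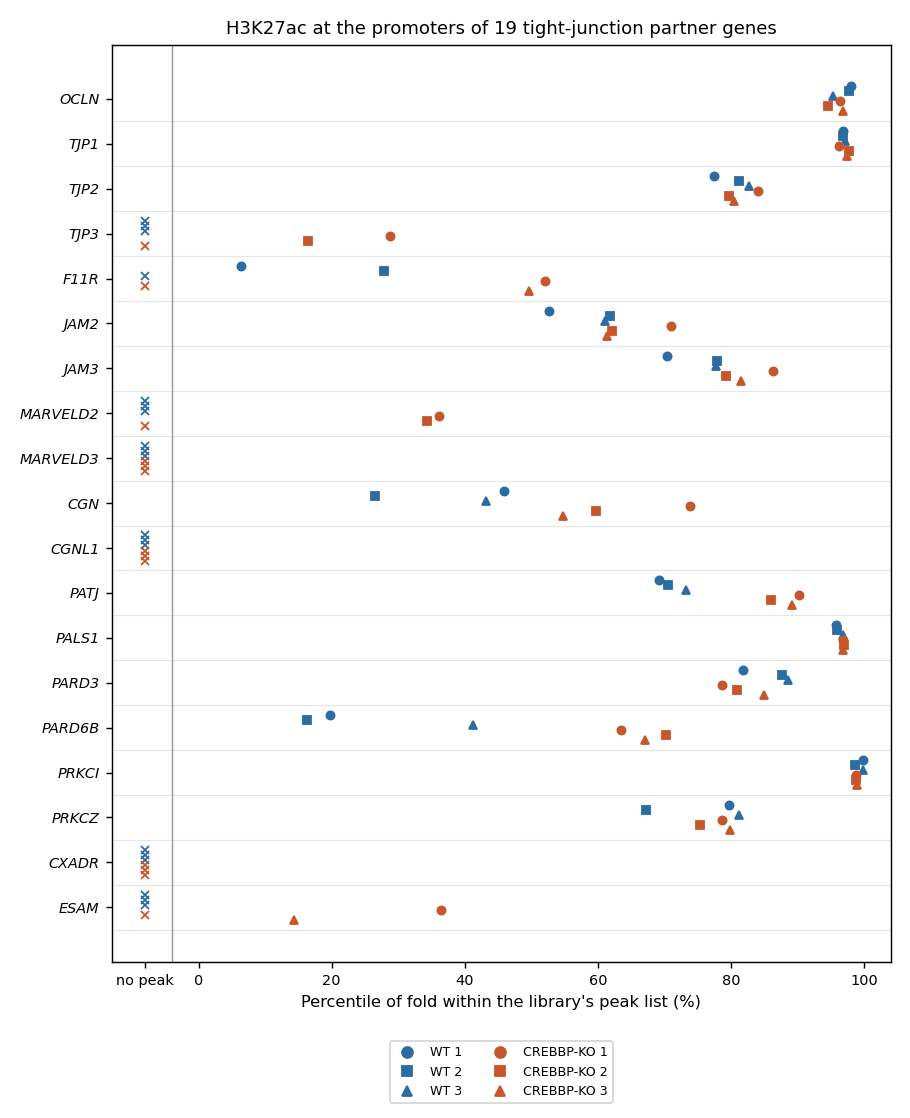
Percentile of the highest promoter peak of 19 tight-junction partner genes within the list of each library, with blue symbols for WT, orange for CREBBP-KO and crosses at the left for libraries with no promoter peak. PATJ, PARD6B, CGN and JAM3 lie higher in the 3 CREBBP-KO libraries, OCLN, TJP1, PALS1 and PRKCI lie above percentile 90 in both genotypes, and MARVELD3, CGNL1 and CXADR have no promoter peak.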

How the data were processed

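H3K27ac ChIP-seq peak lists of 3 WT and 3 CREBBP-KO libraries of HCEC-1CT cells were used. Per the labels, the authors aligned reads to hg38 with BWA, and their methods name the nf-core ChIP-seq pipeline and MACS2 narrow peaks, called for each library without pooling. Reads were also downsampled by the authors, and which of their pipeline runs gave the lists is not given in the sources used here. The deposited fold is a linear ratio over local background. The deposited significance is a -log10 p-value and a -log10 q-value. The deposited score was not used. The lists hold no read counts, so depth is unknown and no counting interval was computed.

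Gene bodies came from GENCODE release 44, and every peak lay within its hg38 chromosome. Peaks were merged where they overlapped or touched, and each interval took its highest fold per library. The 35542 intervals with a fold of at least 5 in all 3 libraries of a genotype were called filtered, and the 34864 of them with a peak in all 6 libraries were tested with limma 3.58.1 (trend, Benjamini-Hochberg) under R 4.3.3, since the study's read-based test cannot be run on peaks. For percentiles and counts, exact permutation tests (two-sided) over the 6 libraries were used. Python 3.11.15, pandas 2.3.3 and scipy 1.17.1 were used.

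The fit was tested on simulated data over 34864 intervals with 200 shifted for this comparison. It recovered 0 of 200 shifts of 1 unit, 175 of 200 shifts of 2 units and 198 of 200 shifts of 3 units. In the real lists 13005 intervals passed, which makes the adjusted threshold easier to reach than in that simulation.

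All members were named, with intervals past the threshold, intervals with peaks in all 3 libraries of one genotype and none of the other, and the 2 highest others of each member. Of the partners, those past the threshold or without a promoter peak were named, and TJP1, OCLN, PARD6B, CGN and JAM3 were added after their values were seen. Members, lists and tests were chosen with earlier results of these data known. Alternatives in filter, ranking, model, window, merging and libraries were tried, those on partner, marker and other claudin promoters, and the peak counts without the CLDN8 sites, being chosen after seeing the data.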

Additional observations from a re-analysis of the deposited data

How the results depend on the processing

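The counts of 5 lower and 2 higher claudin intervals depended on the processing. The lower count was 2 with a fold filter of at least 10, where 9 intervals were tested, and 3 in limma without a trend. The higher count was 1 when intervals were ranked by -log10 p, 0 with windows of 10 kb and 6 with windows of 50 kb, which tested 12 and 26 intervals. Of partner promoters, 3 were higher with no fold filter or one of at least 3, and 0 were lower by -log10 p or without a trend. When each library was left out in turn, 2 to 5 claudin intervals were lower and 1 to 2 higher, and 0 to 1 partner promoters were lower and 1 to 2 higher. The lower count fell to 3 without WT 2 and 2 without CREBBP-KO 3, and the higher count to 1 without WT 1, CREBBP-KO 1 or CREBBP-KO 2. The count of lower partner promoters was 0 without WT 3, CREBBP-KO 1, CREBBP-KO 2 or CREBBP-KO 3, and without WT 1 it was 1 although PRKCI no longer passed, while 2 were higher without CREBBP-KO 1. The cause was not tested. Alternatives on the partners were chosen after seeing the data, as was leaving out the CLDN8 sites, which took the difference in peaks per library from -2.67 to -0.333.

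The CLDN7 promoter difference of 1.87 percentile points was -1.67 by -log10 p and -0.816 with lists trimmed to one length. Shifts that did not pass the test also turned. The FIS1 interval from 101243094 had -0.05 with a fold filter of at least 10, -0.09 by -log10 p and -0.11 to 0.22 with a library left out. The downstream CLDN4 interval had -0.10 by -log10 p, and the CLDN7 interval from 7262217 had -0.22 to 0.02 with a library left out. No interval that passed the test reversed in the alternatives run. Over all recomputed values, 345 kept their direction and side of the threshold, or for counts stayed within 1.5 times, 26 no longer passed the test, 2 newly passed it, 19 counts moved by more and 8 values turned sign.

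With the replicate block, 5 claudin intervals were lower and 2 higher, and 1 partner promoter lower and 1 higher, as without it. Libraries of the same number deviated together with correlations of 0.01, 0.01 and 0.03, so the numbers were not taken to pair the samples. With 3 libraries a genotype and no read counts, a peak below the calling threshold cannot be told from no acetylation.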

Other observations

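Among the 14 claudin genes outside the 10 followed above, 4 had a promoter peak in all 6 libraries, 1 in some and 9 in none, where 61.8% of all protein-coding genes had one in all 6 and 32.2% in none. The promoter window of CLDN6, an embryonic claudin, was overlapped by a peak near the top of the lists in both genotypes. Its folds were 22.1, 18.5 and 19.6 in WT and 22.8, 25.8 and 21.3 in CREBBP-KO (limma adjusted p = 0.97). The interval ran from 3019735 to 3025044, while CLDN6, on the minus strand, begins at 3020071 and runs to lower coordinates. Most of the interval thus lay outside CLDN6, and whether the peak belongs to CLDN6 or to a neighbouring gene was not tested. Of the 4 with a tested promoter interval, 1 ranked higher in CREBBP-KO and 0 lower, beside 26.5% and 8.4% of the promoter intervals of all protein-coding genes. That one was CLDN20, with folds of 5.00, 4.13 and 6.09 in WT and 12.4, 9.26 and 7.44 in CREBBP-KO, which do not overlap (shift 1.32 ± 0.31, SE, limma adjusted p = 0.00222). CLDN11, the claudin of myelin and the testis barrier, and CLDN16, a kidney claudin, did not pass the test (limma adjusted p = 0.733 and 0.107).

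CLDN14, a claudin of the inner ear and kidney, had a promoter peak in the 3 CREBBP-KO libraries, at folds of 6.49, 4.41 and 4.54, and in no WT library. The genotype with peaks at CLDN14 was the opposite of that at CLDN8, where both intervals had peaks in WT alone. The share of promoters over the genome with peaks in CREBBP-KO alone is not given here, so CLDN14 cannot be set against it. The CREBBP-KO lists were the longer ones, and PECAM1 also had promoter peaks in CREBBP-KO alone. The other claudins were chosen with earlier results of these data known, and CLDN14 was singled out after its values were seen.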
